A study of Mus musculus with 30 samples.

Results

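The clade B serpins examined here were Serpinb1a, Serpinb2, Serpinb3a, Serpinb3b, Serpinb3c, Serpinb5, Serpinb8, Serpinb9, Serpinb11 and Serpinb12, which are 10 of the 22121 gene symbols on the array. They were taken by symbol from the expression matrix, and 17 probe sets carried these symbols. Serpinb3b and Serpinb3c share their probe sets and are reported as a single value, so that 9 measured members were followed. All 17 probe sets passed the filter on low values. The brightest probe set of each member is quoted, and the others are described beside it. The quoted probe sets of Serpinb3a and of Serpinb3b and Serpinb3c are both of a type whose probes can also bind related transcripts. Serpinb3d, a further paralog, had no probe set under its symbol. Which paralog gave a Serpinb3 signal is therefore uncertain, and the Serpinb3 values may not be separate signals.

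RNA came from whole back skin of WT mice and of D6-deficient mice, which lack the scavenging receptor for inflammatory CC chemokines, all female on a mixed 129 and C57BL/6 background and 8 to 12 weeks old. The shaved back was painted 3 times, 24 h apart, with the phorbol ester TPA at 50 µM, and skin was taken 1, 2, 4 or 6 days later. Day 0 skin had no TPA. The labels call it untreated in the titles and acetone-treated in the descriptions. Each of the 10 genotype-by-day groups held 3 mice, each on its own Affymetrix mouse genome expression array, which made 30 arrays. The deletion is present in every cell of the mouse and the tissue is a mixture, so that fewer cells of a type and less RNA per cell cannot be told apart for any value below. Array medians lay between 5.64 and 5.80 on the log2 scale. Krt5 and Krt14, keratins of basal epidermis, had group means between 11.7 and 14.3. Of 3 probe sets for the D6 gene, listed as Ccbp2, 1 separated the genotypes, with 3.30 to 3.86 in the 15 D6-deficient arrays and 4.16 to 5.76 in the 15 WT arrays. The other 2 overlapped between the genotypes.

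Serpins of clade B are protease inhibitors that lack a classical secretion signal and act mostly inside cells. An inhibitory serpin presents a loop as bait. Once a protease cuts this loop, the serpin changes shape and the enzyme stays trapped. Skin keratinocytes and infiltrating leukocytes both make members of the clade. Serpinb3a, Serpinb3b and Serpinb3c are mouse relatives of the human squamous cell carcinoma antigens, which block cysteine and serine proteases. Serpinb12 blocks trypsin-like proteases and Serpinb8 blocks furin. Serpinb5, known as maspin, is an epithelial member without protease-trapping activity. Serpinb2 is plasminogen activator inhibitor type 2, Serpinb1a blocks the serine proteases of neutrophil granules and Serpinb9 blocks granzyme B, the killing protease of cytotoxic lymphocytes. TPA activates protein kinase C, and the transcription factor AP-1 downstream of it binds a short element named after TPA.

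The members sit in 2 clusters of the mouse genome. In the RefSeq annotation of GRCm38.p6, 8 of the 10 lie on chromosome 1, in the order Serpinb5, Serpinb12, Serpinb3a, Serpinb3b, Serpinb3c, Serpinb11, Serpinb2 and Serpinb8, with other serpin genes between some of them. The other 2, Serpinb1a and Serpinb9, lie on chromosome 13. RefSeq promoters were at hand for 9 of the 10. The 250 bases before the annotated start were searched for TGANTCA, which reads the same on both strands. It is a loose form of the AP-1 element, TGACTCA or TGAGTCA, with any base in the middle. It was found in 5 of the 9 (Serpinb11, Serpinb12, Serpinb2, Serpinb5 and Serpinb8) and in 6.75% of 32851 mouse promoters of that length, and it was not among these bases in Serpinb3a, Serpinb3b, Serpinb3c or Serpinb9. Serpinb12 and Serpinb2 have 2 annotated starts each, and the second Serpinb12 promoter held no match. The count for members is per gene and the share of all promoters is per start, so they are not on the same footing. Matches in Serpinb11, Serpinb12, Serpinb2 and Serpinb5 had A or T in the middle. Only that of Serpinb8, TGAGTCA, had the stricter AP-1 form. The match is a description of letters and not of binding. The promoters of Serpinb3a, Serpinb3b and Serpinb3c, which head the list of changes given later, are shown first. Serpinb12, Serpinb2 and Serpinb5 follow as members that hold a match to the loose form, each with a different time course. All are GRCm38.p6, written 5′ to 3′ on the strand of the gene and ending at the base before the start, with the match in capitals.
Serpinb3a, chr1:107052304-107052553, minus strand: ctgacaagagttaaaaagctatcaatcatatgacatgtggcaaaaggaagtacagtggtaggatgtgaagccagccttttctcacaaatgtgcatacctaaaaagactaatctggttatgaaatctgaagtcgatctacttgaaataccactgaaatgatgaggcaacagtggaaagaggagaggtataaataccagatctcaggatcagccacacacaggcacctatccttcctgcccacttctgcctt
Serpinb3b, chr1:107161115-107161364, minus strand: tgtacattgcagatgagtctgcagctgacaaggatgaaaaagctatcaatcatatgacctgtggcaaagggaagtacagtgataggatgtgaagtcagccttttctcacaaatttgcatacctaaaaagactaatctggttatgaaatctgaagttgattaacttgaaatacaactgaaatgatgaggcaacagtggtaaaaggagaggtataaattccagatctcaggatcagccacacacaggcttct
Serpinb3c, chr1:107278372-107278621, minus strand: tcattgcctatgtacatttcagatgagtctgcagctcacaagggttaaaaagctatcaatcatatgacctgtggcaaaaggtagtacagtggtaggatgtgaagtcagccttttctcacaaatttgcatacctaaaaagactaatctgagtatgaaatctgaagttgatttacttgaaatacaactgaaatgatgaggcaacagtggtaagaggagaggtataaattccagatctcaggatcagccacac
Serpinb12, chr1:106934199-106934448, plus strand: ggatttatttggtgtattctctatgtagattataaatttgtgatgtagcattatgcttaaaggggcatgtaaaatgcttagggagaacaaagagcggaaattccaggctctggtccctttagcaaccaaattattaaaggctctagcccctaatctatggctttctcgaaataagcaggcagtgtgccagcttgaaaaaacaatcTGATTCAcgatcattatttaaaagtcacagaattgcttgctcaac
Serpinb2, chr1:107511173-107511422, plus strand: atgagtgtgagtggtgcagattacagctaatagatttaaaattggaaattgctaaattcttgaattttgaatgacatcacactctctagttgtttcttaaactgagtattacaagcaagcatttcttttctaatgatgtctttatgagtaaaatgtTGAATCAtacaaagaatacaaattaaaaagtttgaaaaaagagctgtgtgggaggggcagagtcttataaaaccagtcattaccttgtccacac
Serpinb5, chr1:106860925-106861174, plus strand: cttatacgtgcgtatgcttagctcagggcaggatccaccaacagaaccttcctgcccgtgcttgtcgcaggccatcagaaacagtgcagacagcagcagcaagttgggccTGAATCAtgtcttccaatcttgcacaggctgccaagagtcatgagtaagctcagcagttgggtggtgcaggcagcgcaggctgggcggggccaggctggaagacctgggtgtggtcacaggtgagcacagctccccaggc
Counted back from the start, the match began at position -45 in Serpinb12, at -94 in Serpinb2 and at -140 in Serpinb5. Promoters of Serpinb3b and Serpinb3c were identical at 88.1% of aligned columns. Serpinb3a shared 77.7% with Serpinb3b and 72.2% with Serpinb3c, and no other pair of members passed 53.8%.

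Values are log2 RMA intensities, in which a step of 1 is a doubling, and levels of different genes are not set against each other because probes differ in brightness. All tests used limma with 1 mean per genotype and day over all arrays, with p-values adjusted over the 36029 probe sets tested. A member is said to have risen or fallen where the adjusted p was under 0.05, and it is termed called where the change was also over 3-fold.

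Most clade B serpins stood higher in WT skin on days 1, 2 and 4 after TPA than on day 0, and the days of the rise set the members apart. Skin without TPA was sampled on day 0 only, so that TPA and the time since shaving cannot be told apart. On day 1, 6 of the 9 members rose and none fell, against 24.0% of all probe sets passing the same test in either direction. Day 2 gave 8 of 9 (all higher, background 26.1%), day 4 gave 6 higher and 1 lower (39.1%) and day 6 gave 4 higher (22.1%). The median change of the 9 members was 1.05, 1.29, 1.17 and 0.38 log2 on the 4 days, whereas the median over all tested probe sets lay within 0.02 of 0 on every day in both genotypes. Called members numbered 3, 4, 3 and 3 of 9, where 1.77%, 1.90%, 3.24% and 1.34% of all probe sets were called.

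In D6-deficient skin, 5 of 9 members rose on day 1 (background 36.3%) and 5 on day 2 (38.1%). On day 4, 5 rose and 3 fell (41.1%), and on day 6, 3 rose and 1 fell (31.7%). The median changes were 0.54, 0.72, 1.03 and 0.05 log2. Called members numbered 3, 3, 3 and 2, against 2.49%, 3.27%, 4.01% and 2.13% of all probe sets. The count on day 4 depended on single arrays, since it was 5 without array 2 of D6-deficient day 0, and the count on day 6 was 1 without array 1 or 2 of D6-deficient day 0 or without array 2 of D6-deficient day 6.

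**Figure D1:**
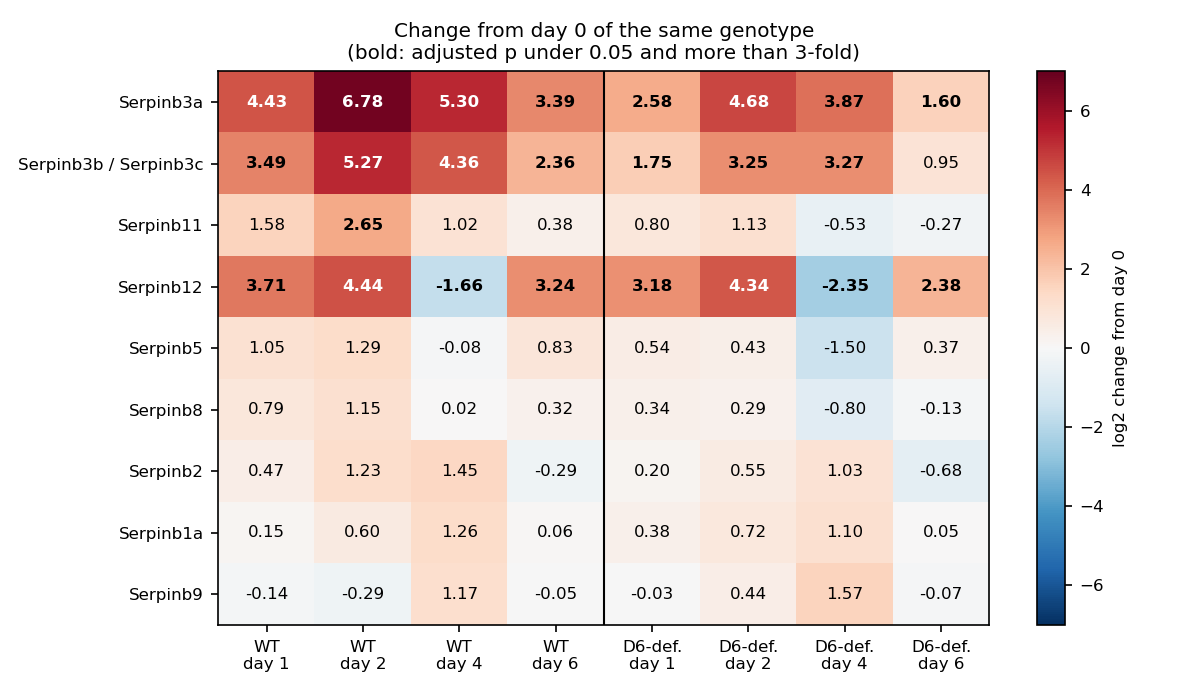
Change of each member from day 0 of the same genotype, in log2, for the 4 days after TPA in WT and D6-deficient skin, with red for higher and blue for lower and bold figures for called changes. The Serpinb3 genes and Serpinb12 carry nearly all bold figures, and Serpinb12 turns from 4.44 on day 2 to -1.66 on day 4 in WT skin.

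The Serpinb3 group gave the greatest rise. In WT skin Serpinb3a stood at 4.59, 3.88 and 4.27 on day 0 and at 11.10, 11.43 and 10.54 on day 2, with 8.93, 8.06 and 9.04 on the day between. The day 4 arrays read 9.67, 9.27 and 9.69, and the day 6 arrays 7.41, 7.82 and 7.67. All 12 WT arrays taken after TPA lay far above the 3 taken without it, and those of day 6 had come part of the way down. The rise was 21.5-fold on day 1 (4.43 ± 0.38 log2, SE), 110-fold on day 2 (6.78), 39.4-fold on day 4 (5.30) and 10.5-fold on day 6 (3.39), with limma adjusted p of 3e-08, 1.5e-11, 2.6e-10 and 3e-06.

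D6-deficient skin began higher and less evenly. Its day 0 arrays read 5.60, 4.92 and 6.56 for Serpinb3a, all above the 3 WT arrays, with a SD of 0.82 against 0.36. They reached 8.23, 8.28 and 8.31 on day 1 and 11.28, 9.83 and 10.00 on day 2, and then 9.16, 9.93 and 9.59 on day 4 and 7.29, 7.91 and 6.69 on day 6. From that start the same arc gave smaller folds, of 5.97 on day 1, 25.6 on day 2 (4.68 log2, adjusted p = 2.4e-09), 14.6 on day 4 and 3.04 on day 6 (1.60, adjusted p = 0.0023). The last of these was not called without array 1 (1.56) or array 2 (1.22) of D6-deficient day 0 or without array 2 of D6-deficient day 6 (1.30).

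The shared Serpinb3b and Serpinb3c probe set followed the same course. WT arrays read 6.67, 6.17 and 5.91 on day 0, 10.13, 9.17 and 9.91 on day 1, and 11.63, 11.92 and 11.00 on day 2. They read 10.85, 10.08 and 10.90 on day 4, a change of -0.91 from day 2 that did not pass (adjusted p = 0.089), and 8.23, 8.94 and 8.67 on day 6. The groups of day 0 and of every later day were apart without overlap. The rise was 11.2-, 38.5-, 20.5- and 5.15-fold on the 4 days (3.49, 5.27, 4.36 and 2.36 ± 0.35 log2), all called.

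In D6-deficient skin this probe set read 8.13, 6.70 and 8.39 on day 0, 9.44, 9.49 and 9.53 on day 1, and 11.59, 10.49 and 10.92 on day 2. Day 4 gave 10.82, 11.13 and 11.08, much as day 2, and day 6 gave 8.63, 8.96 and 8.48. Array 2 of day 0 was the lowest of its group by over 1 log2 unit for this probe set. The rise was 3.35-, 9.54-, 9.65- and 1.93-fold (1.75, 3.25, 3.27 and 0.95 log2). Without that array the day 1 value was 1.23 and no longer called, and the day 6 value was 0.43 (adjusted p = 0.36 against 0.042). The day 6 value also failed without array 1 (adjusted p = 0.076) or array 2 (0.14) of D6-deficient day 6. The second Serpinb3b and Serpinb3c probe set moved alike, apart from day 6 in D6-deficient skin (0.91, adjusted p = 0.073).

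**Figure D2:**
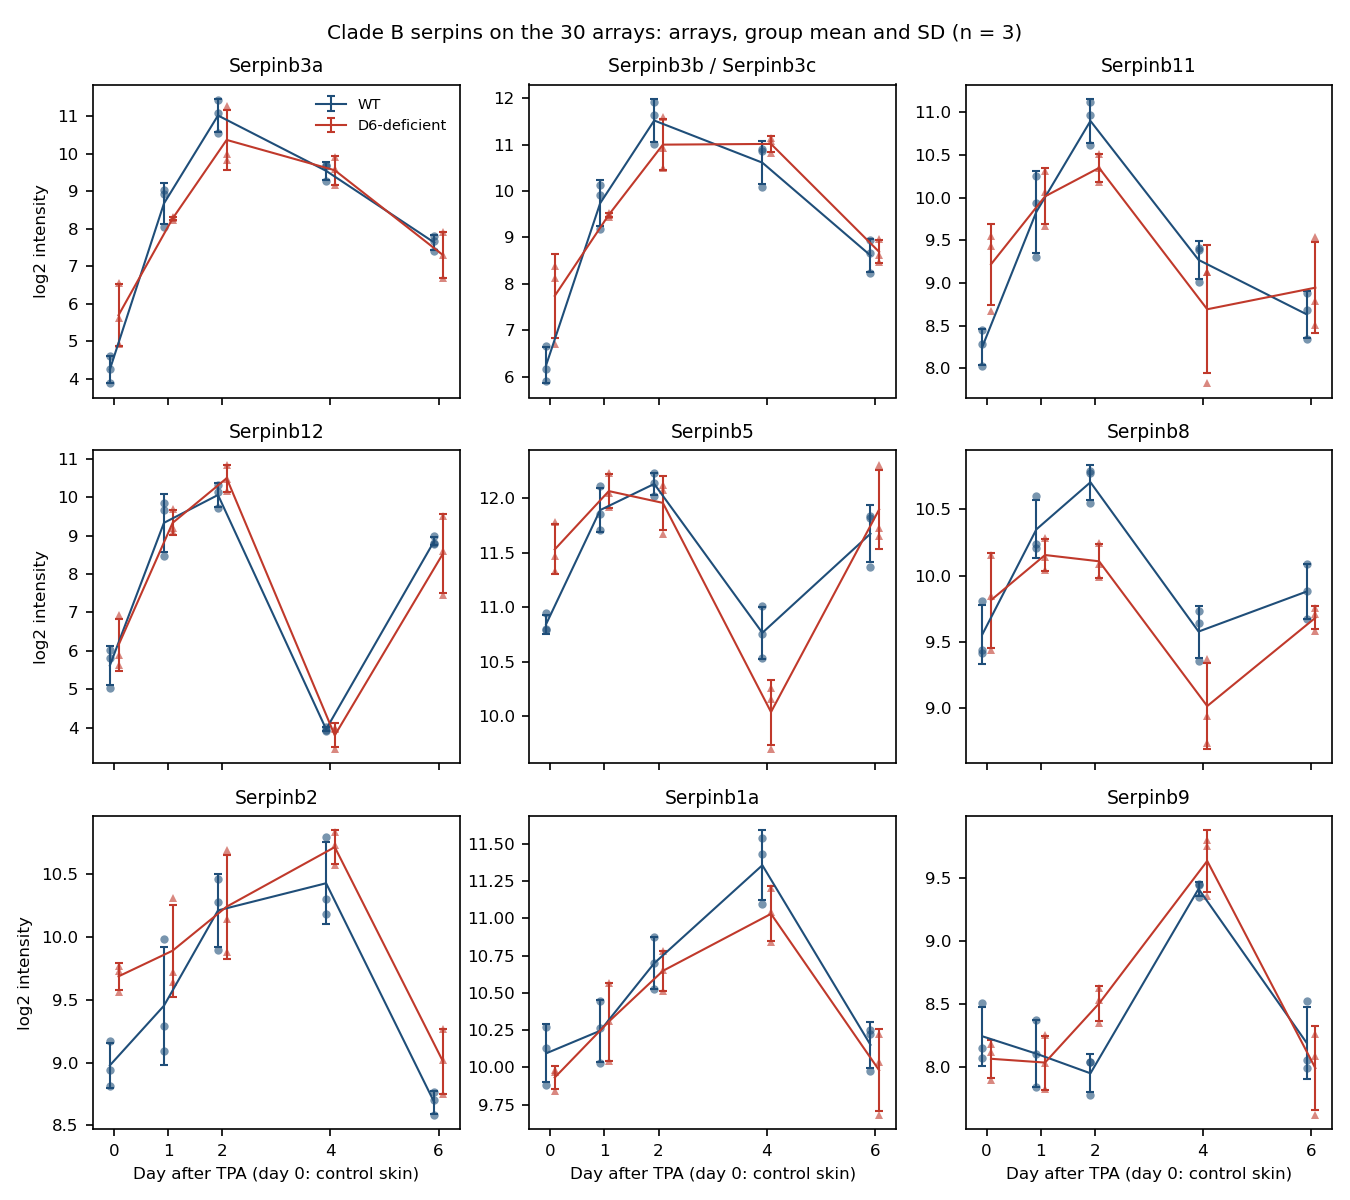
Each member on all 30 arrays, as log2 intensity against the day after TPA, with points for single arrays and lines and bars for the group mean and SD (3 arrays a group), WT in blue and D6-deficient in red, on axes that do not start at 0. Serpinb3a climbs in WT skin from 3.88 to 4.59 on day 0 to between 10.54 and 11.43 on day 2, and Serpinb12 drops below its day 0 level on day 4 before it returns on day 6.

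Serpinb12, the blocker of trypsin-like proteases, rose early and dropped on day 4 in both genotypes. In WT skin it read 6.01, 5.81 and 5.03 on day 0, 9.85, 8.47 and 9.67 on day 1, and 10.14, 10.31 and 9.72 on day 2. The 3 day 4 arrays were at 3.94, 4.02 and 3.91, and the 3 day 6 arrays were back at 8.98, 8.79 and 8.80. No array of day 4 overlapped with any array of another day. The changes from day 0 were 3.71, 4.44, -1.66 and 3.24 log2 (SE 0.40), all called, of which that of day 4 was not called without array 1 (-1.47) or array 2 (-1.56) of WT day 0.

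D6-deficient skin gave the same shape for Serpinb12, with 6.92, 5.90 and 5.62 on day 0, 9.70, 9.19 and 9.10 on day 1 and 10.15, 10.85 and 10.48 on day 2. It read 3.44, 3.95 and 4.00 on day 4 and 9.51, 7.46 and 8.61 on day 6. The changes were 3.18, 4.34, -2.35 and 2.38 log2, all called. Between day 2 and day 4 alone it fell, with a change of -6.10 log2 in WT skin and -6.70 in D6-deficient skin. It then rose by 4.90 and 4.73. The day 4 arrays lay near 3.725, the lowest mean kept by the filter, although the lowest readings on these arrays were 2.39 to 2.47. Changes among weak signals are compressed, so that the size of the drop is uncertain.

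A second, dimmer Serpinb12 probe set showed the rise and the return toward baseline but not the drop below it. It rose by 2.90 log2 in WT and 3.33 in D6-deficient skin on day 2, and by 1.47 and 1.08 on day 1, less than 3-fold. On day 4 it differed from day 0 by 0.18 (adjusted p = 0.65) and 0.16 (adjusted p = 0.69). From day 2 to day 4 it fell, with changes of -2.71 and -3.17. Whether Serpinb12 ended below its starting level on day 4 therefore rests on the brighter probe set, while the fall from day 2 was seen with both.

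**Figure D3:**
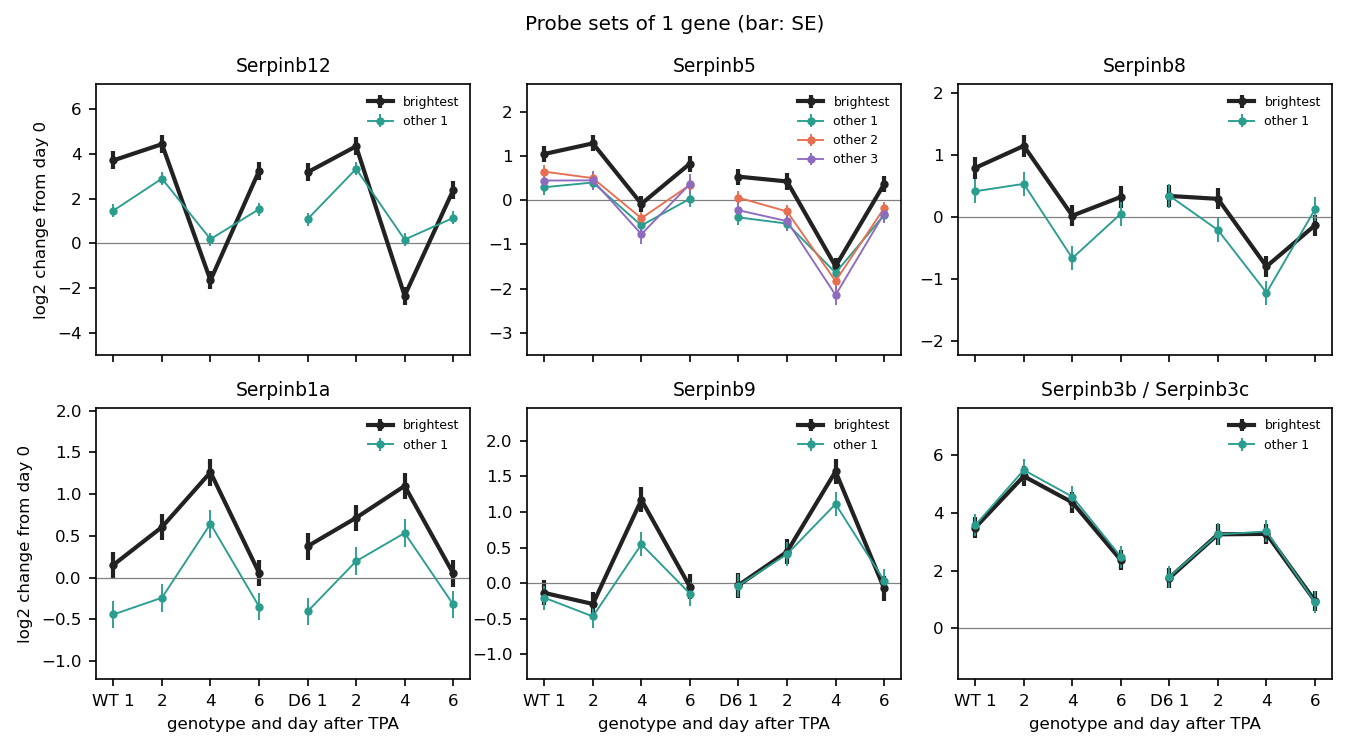
Change from day 0 in log2 (bar, SE) of every probe set of the 6 members with over 1 probe set, by genotype and day, with the quoted probe set in black and the others in colour. The Serpinb12 probe sets part on day 4, at -1.66 and 0.18 in WT skin, and all 4 of Serpinb5 are lowest on day 4.

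Serpinb11, Serpinb5 and Serpinb8 rose on days 1 and 2 in WT skin and came down from day 2 to day 4 in both genotypes. Serpinb5 and Serpinb8 fell below day 0 on day 4 in D6-deficient skin, whereas Serpinb11 was still above it in WT skin. Serpinb11 read 8.28, 8.45 and 8.03 in WT day 0 skin, 10.26, 9.31 and 9.94 on day 1 and 10.96, 11.12 and 10.61 on day 2. It was at 9.01, 9.38 and 9.41 on day 4 and at 8.34, 8.88 and 8.68 on day 6, which overlapped with day 0. It rose by 1.58 log2 on day 1 (adjusted p = 0.00062), just under 3-fold and over it when array 1 or 2 of WT day 0 or array 2 of WT day 1 was left out, and by 2.65 on day 2 (1.1e-06, called). By day 4 the change was 1.02 (adjusted p = 0.011) and by day 6 it was 0.38 (0.43).

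D6-deficient arrays read 9.55, 8.67 and 9.43 for Serpinb11 on day 0, above all WT day 0 arrays. They moved to 10.32, 9.66 and 10.06 on day 1, 10.51, 10.18 and 10.35 on day 2, 7.82, 9.12 and 9.12 on day 4 and 8.79, 9.54 and 8.51 on day 6. Array 1 of day 4 stood lowest of all 30 arrays for this gene. Only the changes of 0.80 on day 1 (adjusted p = 0.047) and 1.13 on day 2 (0.0054) passed, and the first passed in 2 of 6 fits with an array left out. It failed without array 2 (0.52, adjusted p = 0.24) or array 3 (0.055) of D6-deficient day 0 or array 1 (0.17) or array 3 (0.095) of D6-deficient day 1.

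For Serpinb5, or maspin, WT arrays read 10.95, 10.79 and 10.79 on day 0, 12.11, 11.71 and 11.86 on day 1 and 12.14, 12.24 and 12.03 on day 2. Day 4 was back at 10.76, 11.01 and 10.53, which overlapped with day 0, and day 6 was at 11.37, 11.84 and 11.82. It rose by 1.05 ± 0.18 log2 on day 1, by 1.29 on day 2 and by 0.83 on day 6, and differed by -0.08 on day 4 (adjusted p = 0.77). With this probe set the WT signal thus went up, returned and went up again. The other Serpinb5 probe sets moved less from day 0 to day 6 in WT skin. Their means on those days were 10.75 and 10.79, 9.80 and 10.15, and 9.57 and 9.94.

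In D6-deficient skin Serpinb5 began at 11.78, 11.34 and 11.47 and reached 12.23, 11.92 and 12.05 on day 1 and 11.68, 12.08 and 12.12 on day 2. On day 4 it had dropped to 9.70, 10.16 and 10.26, below every other array of either genotype, before 11.66, 12.31 and 11.73 on day 6. It rose by 0.54 on day 1 (adjusted p = 0.024) and fell by 1.50 on day 4 (5.5e-07), which was 2.82-fold and over 3-fold without array 2 of D6-deficient day 0 (-1.59) or array 3 of D6-deficient day 4 (-1.61). The other 3 probe sets fell on that day, with changes of -1.64, -1.83 and -2.15 log2. In WT skin these 3 also fell on day 4, with changes of -0.57, -0.41 and -0.77 (adjusted p = 0.014, 0.031 and 0.0064), whereas the quoted probe set did not. The early rise was weaker or absent with them. On day 1 in D6-deficient skin they gave -0.39 (adjusted p = 0.096), 0.06 (0.79) and -0.22 (0.45), and the rise of the quoted probe set passed in 3 of 6 fits, not without array 2 or 3 of D6-deficient day 0 or array 1 of D6-deficient day 1 (adjusted p 0.07 to 0.11). On day 2 in WT skin they gave 0.40 (adjusted p = 0.1), 0.50 (0.013) and 0.45 (0.13), and in D6-deficient skin all 3 were at or below -0.25, of which -0.53 passed (0.022).

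Serpinb8, the blocker of furin, read 9.81, 9.44 and 9.42 in WT day 0 skin, 10.60, 10.24 and 10.21 on day 1 and 10.79, 10.55 and 10.77 on day 2. It stood at 9.36, 9.73 and 9.65 on day 4 and at 9.68, 9.88 and 10.09 on day 6, both overlapping with day 0. It rose by 0.79 ± 0.17 log2 on day 1 (adjusted p = 0.0015) and by 1.15 on day 2 (2.5e-05). D6-deficient arrays read 10.15, 9.44 and 9.85 on day 0, 10.14, 10.05 and 10.28 on day 1 and 10.09, 9.99 and 10.25 on day 2. The 3 days overlapped or lay side by side, and neither the change of 0.34 nor that of 0.29 passed the test. On day 4 the D6-deficient arrays were at 8.74, 9.37 and 8.94, all below day 0, and Serpinb8 fell by 0.80 (adjusted p = 0.00055). Day 6 gave 9.59, 9.71 and 9.75. The other Serpinb8 probe set fell on day 4 in both genotypes, by 0.66 in WT (adjusted p = 0.008) and by 1.22 in D6-deficient skin.

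Serpinb2, Serpinb1a and Serpinb9, the inhibitors of urokinase, of neutrophil granule proteases and of granzyme B, all had their highest mean on day 4 in both genotypes. Serpinb2 read 9.17, 8.94 and 8.82 in WT day 0 skin, 9.98, 9.29 and 9.09 on day 1 and 10.46, 9.89 and 10.28 on day 2. Day 4 gave 10.18, 10.30 and 10.80, and day 6 gave 8.70, 8.58 and 8.77, all below the day 0 arrays. It rose by 1.23 ± 0.23 log2 on day 2 (adjusted p = 0.00024) and by 1.45 on day 4 (1.8e-05), and the changes of 0.47 on day 1 and -0.29 on day 6 did not pass.

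In D6-deficient skin Serpinb2 began at 9.77, 9.56 and 9.73 and read 10.31, 9.72 and 9.64 on day 1, then 10.69, 10.14 and 9.88 on day 2. It peaked at 10.73, 10.84 and 10.57 on day 4 and ended at 8.75, 9.26 and 9.02 on day 6, all below its day 0 arrays. It rose by 1.03 on day 4 (adjusted p = 0.00068) and fell by 0.68 on day 6 (0.024), which passed in 3 of 6 fits with an array of that contrast left out and failed without array 1 or 3 of D6-deficient day 0 or array 1 of D6-deficient day 6. The change of 0.55 on day 2 had an adjusted p of 0.055.

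Serpinb1a read 10.13, 10.27 and 9.88 in WT day 0 skin, 10.44, 10.27 and 10.03 on day 1 and 10.70, 10.88 and 10.52 on day 2. It reached 11.09, 11.43 and 11.54 on day 4, above all arrays of the other days, and returned to 10.23, 10.25 and 9.97 on day 6. D6-deficient arrays read 9.98, 9.84 and 9.97 on day 0, 10.57, 10.05 and 10.31 on day 1, 10.78, 10.65 and 10.51 on day 2, 10.84, 11.21 and 11.05 on day 4 and 10.03, 9.68 and 10.23 on day 6. In both genotypes the arrays were highest on day 4 and overlapped with day 0 on day 6. No change on day 1 passed, at 0.15 (adjusted p = 0.55) in WT and 0.38 (0.067) in D6-deficient skin. The gene rose by 0.60 on day 2 (adjusted p = 0.0061) and by 1.26 ± 0.16 on day 4 (1.1e-06) in WT skin, and by 0.72 and by 1.10 (5.4e-06) in D6-deficient skin. The second probe set rose on day 4 by 0.64 and 0.53 but not on day 2, with changes of -0.24 and 0.20 there, and on day 1 it was lower than on day 0 without passing, at -0.44 (adjusted p = 0.056) and -0.41 (0.059).

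The quoted Serpinb9 probe set passed the test on day 4 and on no other day. WT arrays read 8.15, 8.06 and 8.51 on day 0, 7.84, 8.37 and 8.10 on day 1 and 8.03, 7.77 and 8.03 on day 2. The day 4 arrays were at 9.35, 9.44 and 9.45, clear of all others, and those of day 6 at 8.52, 7.99 and 8.05. D6-deficient arrays read 8.12, 8.18 and 7.89 on day 0, 8.03, 8.25 and 7.82 on day 1, 8.53, 8.63 and 8.35 on day 2, 9.80, 9.35 and 9.75 on day 4 and 8.26, 7.62 and 8.08 on day 6. The rise on day 4 was 1.17 log2 in WT (adjusted p = 1.1e-05) and 1.57 in D6-deficient skin (1.4e-07), the latter 2.97-fold and over 3-fold without array 1 or 2 of D6-deficient day 0 or array 2 of D6-deficient day 4. The change of 0.44 on day 2 in D6-deficient skin had an adjusted p of 0.05. The second probe set rose by 0.55 and 1.11 on day 4, and in WT skin it had fallen on day 2, with a change of -0.47 (adjusted p = 0.039).

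Ordered by the day of the highest mean, WT skin had 6 members highest on day 2 and 3 on day 4. In D6-deficient skin, 3 were highest on day 2 (Serpinb3a, Serpinb11 and Serpinb12), 4 on day 4 (Serpinb3b and Serpinb3c, Serpinb2, Serpinb1a and Serpinb9) and 2 on day 1 (Serpinb5 and Serpinb8). Not every neighbour in this order was apart from its peak: in WT skin the day 2 mean differed from the day 1 mean in 2 of 9 members by limma (1.20% of all probe sets), those of the Serpinb3 group, at 2.35 log2 for Serpinb3a (adjusted p = 0.002) and 1.78 for Serpinb3b and Serpinb3c (0.012). The latter did not pass without array 2 of WT day 1 (1.50) or array 2 of WT day 2 (1.58). In D6-deficient skin the same 2 passed (10.4%), at 2.10 and 1.51, the latter with an adjusted p of 0.051 without array 1 of D6-deficient day 2.

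From day 2 to day 4, WT skin had 7 of 9 members changed, 5 lower and 2 higher (14.5%). Serpinb12 (-6.10), Serpinb11 (-1.63), Serpinb3a (-1.48), Serpinb5 (-1.37) and Serpinb8 (-1.12 log2) fell, while Serpinb9 rose by 1.47 and Serpinb1a by 0.66. The value for Serpinb3a had an adjusted p of 0.051 without array 2 of WT day 2. D6-deficient skin had 4 lower and 1 higher (16.3%): Serpinb12, Serpinb5 (-1.92), Serpinb11 (-1.66) and Serpinb8 (-1.09) fell and Serpinb9 rose by 1.13. Serpinb3b and Serpinb3c did not pass in either genotype, at -0.91 (adjusted p = 0.089) in WT and 0.02 (0.99) in D6-deficient skin. Nor did Serpinb2, at 0.22 (adjusted p = 0.62) in WT and 0.47 (0.17) in D6-deficient skin. In D6-deficient skin Serpinb1a (0.38, adjusted p = 0.11) and Serpinb3a (-0.81, adjusted p = 0.16) did not pass. From day 4 to day 6, 5 of 9 fell and 2 rose in WT skin (22.1%), and 5 fell and 3 rose in D6-deficient skin (31.4%). In WT and D6-deficient skin, Serpinb2 (-1.74 and -1.70), Serpinb9 (-1.22 and -1.65) and Serpinb1a (-1.21 and -1.05) fell, while Serpinb12 rose by 4.90 and 4.73 and Serpinb5 by 0.91 and 1.86.

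Markers of several cell types moved over the same days. Summed intensity of 10 neutrophil markers, of which Lcn2 and Mmp9 are also made by other skin cells, was 645 to 984 in WT day 0 arrays, 1760 to 7260 on day 2 and 15900 to 22400 on day 4. In D6-deficient skin it was 796 to 1210, 12100 to 15300 and 23700 to 24800. Of the 10 markers, 1 and 7 were called higher on days 2 and 4 in WT skin and 8 and 8 in D6-deficient skin, where 1.90%, 3.24%, 3.27% and 4.01% of all probe sets were called in either direction. The neutrophil sum was thus highest on day 4, the day on which the means of Serpinb2, Serpinb1a and Serpinb9 were highest. The day 4 mean was not told apart from that of day 2 for Serpinb2 in either genotype. Nor was it for Serpinb1a in D6-deficient skin. Over WT arrays the sum of 7 markers of differentiating keratinocytes was 29100 to 32200 on day 0, 49000 to 57800 on day 2, 3970 to 12400 on day 4 and 43500 to 51900 on day 6. Over D6-deficient arrays it was 38500 to 40800, 33400 to 38800, 1270 to 4080 and 31500 to 47700. Of the 7 markers, 3 were called lower on day 4 in WT skin (3.24% of all probe sets) and 5 in D6-deficient skin (4.01%). This sum dropped on day 4 and returned on day 6, as Serpinb12 and Serpinb5 did. Summed skeletal muscle markers, from 8 genes, were lower on every day after TPA than on day 0. They were 109000 to 119000 on WT day 0 and between 43900 and 67700 later, and 94900 to 107000 on D6-deficient day 0 and between 26000 and 67000 later. Sums of macrophage and activated keratinocyte markers also reached their highest values on WT day 4, at 18700 to 21100 and 51200 to 53000. In D6-deficient skin these 2 sums were highest on day 2, at 19400 to 21000 and 50100 to 53600. The part of cell composition in the serpin changes was not tested.

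**Figure D4:**
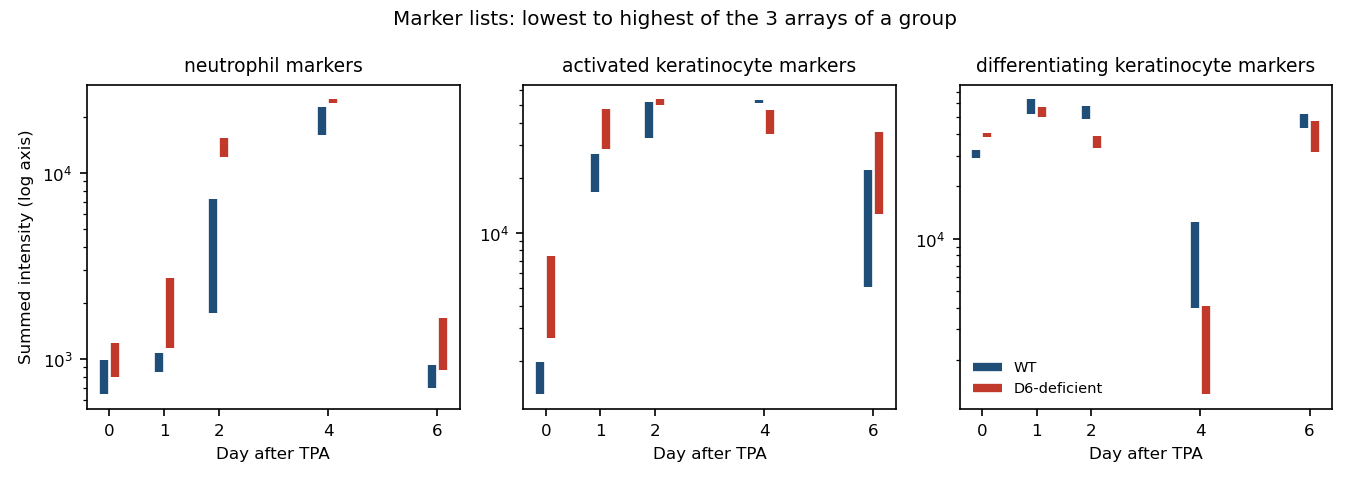
Summed intensity (log axis) of marker lists for neutrophils, activated keratinocytes and differentiating keratinocytes against the day after TPA, each bar running from the lowest to the highest of 3 arrays. The neutrophil sum peaks on day 4 at 15900 to 22400 in WT and 23700 to 24800 in D6-deficient skin, where the sum for differentiating keratinocytes is lowest.

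Did loss of D6 alter the levels of these serpins? Compared on the same day, no quoted probe set of a member was called by limma on any of the 5 days (0.122%, 0.0139%, 0.572%, 0.0777% and 0.0167% of all probe sets on days 0, 1, 2, 4 and 6), and the methods' t-test called 0 as well. At an unadjusted p under 0.05 there were 5, 0, 2, 2 and 0 of the 9 members. Below 3-fold, 1 member passed the adjusted test on day 0 (1.57%) and 1 on day 2 (4.45%), and none did on days 1, 4 and 6 (0.0555%, 0.513% and 0.125%).

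The member that passed on day 0 was Serpinb3b and Serpinb3c, higher in D6-deficient skin by 1.49 log2 (95% interval 0.77 to 2.22, adjusted p = 0.031). The 3 D6-deficient arrays lay above the 3 WT arrays, but the highest WT array, at 6.67, was close to the lowest D6-deficient array, at 6.70. The adjusted p ran from 0.10 to 0.17 without array 2 or 3 of WT day 0 or array 1 or 3 of D6-deficient day 0, and the difference was 2.01 and called without array 2 of D6-deficient day 0. The second probe set of the pair differed by 1.68 (adjusted p = 0.024) and was called. Serpinb3a differed by 1.45 (adjusted p = 0.052), Serpinb11 by 0.97 (0.12), Serpinb2 by 0.71 (0.11) and Serpinb5 by 0.69 (0.055), each with all D6-deficient arrays above all WT arrays. A second Serpinb5 probe set differed by 0.70 (adjusted p = 0.017). Day 0 skin had a summed intensity of activated keratinocyte markers of 2660 to 7450 in D6-deficient and 1310 to 1960 in WT arrays. The sums also lay apart for basal keratinocyte markers (28800 to 33000 against 20100 to 20700), for differentiating keratinocyte markers (38500 to 40800 against 29100 to 32200) and for skeletal muscle markers (94900 to 107000 against 109000 to 119000). Macrophage markers were at 11600 to 14600 against 16400 to 18400. The part of these in the serpin differences was not tested.

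On day 2, Serpinb8 was lower in D6-deficient skin by 0.60 log2 (adjusted p = 0.045), with all 3 D6-deficient arrays below all 3 WT arrays. This did not hold in any of the 6 fits without an array of that contrast (adjusted p 0.052 to 0.19). Serpinb9 was 0.56 higher (adjusted p = 0.075). On day 4, Serpinb5 was lower by 0.73 (adjusted p = 0.073), and another of its probe sets, also at -0.73, passed (adjusted p = 0.018). Averaged over all days, Serpinb2 was higher by 0.36 (adjusted p = 0.035) and Serpinb8 lower by 0.26 (0.047), 2 of 9 members where 5.52% of all probe sets passed. The other Serpinb8 probe set went the opposite way, at 0.15 (adjusted p = 0.38). These passed in 15 and 11 of the 30 fits with an array left out.

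The change from day 0 was then compared between the genotypes, a contrast that subtracts the day 0 difference and thus inherits its error. On day 2 the change was smaller in D6-deficient skin for 4 of 9 members (5.40% of all probe sets in either direction), of which 2 were called (1.11%). Serpinb3a had -2.10 ± 0.54 (SE, adjusted p = 0.02), Serpinb3b and Serpinb3c -2.01 ± 0.50 (0.016), Serpinb11 -1.52 ± 0.44 (0.042) and Serpinb8 -0.85 ± 0.24 (0.037). For Serpinb3a the same-day difference was -0.65 on day 2 and 1.45 on day 0, so that the higher D6-deficient start made up the larger share of the value. The second Serpinb3b and Serpinb3c probe set had -2.23 (adjusted p = 0.014), while the second of Serpinb8 had -0.74 (0.12). These results rested on few arrays and on the spread shared with other groups. With only the arrays of the contrast fitted, neither Serpinb3 probe set was called (adjusted p = 0.063 for both), nor with the methods' t-test after adjustment (0.11 for Serpinb3a and 0.054 for Serpinb3b and Serpinb3c). The adjusted p for Serpinb3a was between 0.051 and 0.076 in 6 of 12 fits with an array left out (array 2 of WT day 0, 1 or 2 of WT day 2, 3 of D6-deficient day 0, and 2 or 3 of D6-deficient day 2). That for Serpinb3b and Serpinb3c was 0.054 to 0.063 without array 1 or 3 of D6-deficient day 0 or array 2 of D6-deficient day 2, and Serpinb11 and Serpinb8 passed in 2 and 4 of 12 such fits.

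Serpinb9 went the other way on day 2, with 0.73 (adjusted p = 0.089) for the quoted and 0.88 (0.028) for the other probe set. On day 4 Serpinb5 was the member that passed (0.608%), at -1.42 ± 0.26 (adjusted p = 0.014). The quoted probe set changed by -1.50 in D6-deficient and by -0.08 in WT skin. Its same-day difference was 0.69 on day 0 and -0.73 on day 4, so that the higher D6-deficient start is part of the value. The other 3 probe sets, which also fell in WT skin on day 4, gave -1.07 (adjusted p = 0.049), -1.42 (0.0023) and -1.38 (0.035). The adjusted p was 0.056 without array 2 of WT day 4 and 0.051 without array 1 of D6-deficient day 0. No member was called on day 4 (0.153%), and none passed or was called on day 1 (0.0194% and 0.00278%) or day 6 (0.0250% and 0.00278%), where 2 of 9 members each had an unadjusted p under 0.05 in limma. On day 4 it was 5 of 9. The methods' t-test called 2, 1 and 2 members on days 1, 4 and 6 before adjustment.

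**Figure D5:**
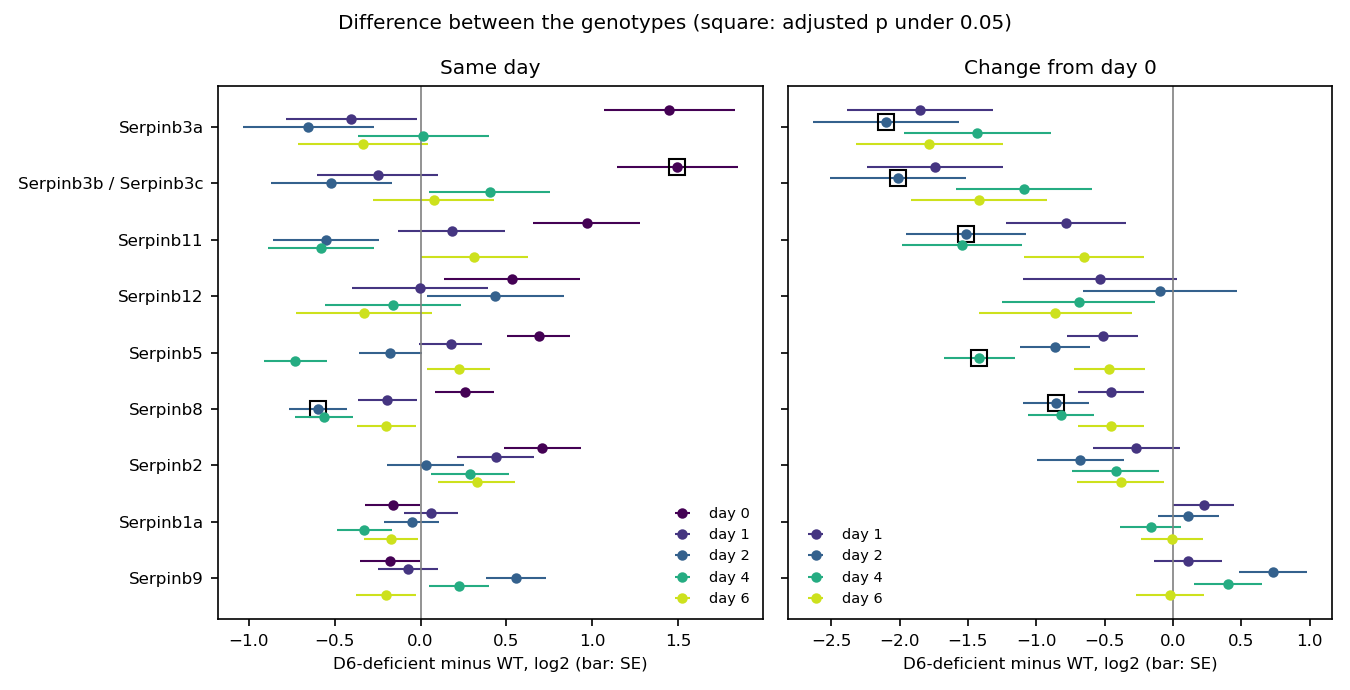
Difference between D6-deficient and WT skin in log2 (bar, SE) for each member, on the same day at left and as change from day 0 at right, with colours for days and squares for adjusted p under 0.05. At left the day 0 points of Serpinb3a and of Serpinb3b and Serpinb3c lie at 1.45 and 1.49, and at right their day 2 points lie at -2.10 and -2.01.

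Over the 30 arrays, which share the genotypes and days, members of a cluster did not all run together. Pearson's r, given as a description, was 0.982 between Serpinb3a and the shared Serpinb3b and Serpinb3c probe set, 0.885 between Serpinb12 and Serpinb5, 0.833 between Serpinb5 and Serpinb8, 0.769 between Serpinb1a and Serpinb2 and 0.728 between Serpinb1a and Serpinb9. Serpinb5 and Serpinb9 ran against each other, at -0.823, as did Serpinb12 and Serpinb9 at -0.693. Among all other genes, the profile nearest to Serpinb3b and Serpinb3c was that of Ehf (0.978), an epithelial Ets transcription factor, followed by Lce3a (0.967) and Sprr2d (0.960), both of the cornified envelope. Serpinb3a was nearest to Atp13a4 (0.963), Glrx (0.957) and Ehf (0.954), and Serpinb5 to Pou3f1 (0.970), S100a14 (0.966) and Hook1 (0.964).

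Serpinb11 was most like Cwh43 (0.924), Serpinb12 like Sh3bgrl2 (0.907) and Serpinb8 like Rab38 (0.931). Serpinb1a was nearest to Fcgr2b (0.926), the inhibitory IgG receptor, and to Hmox1 (0.926), heme oxygenase 1, and Serpinb9 to Ppp1r3d (0.949) and Traf1 (0.942). Serpinb2 was nearest to Gyk (0.909), Hbegf (0.889), an epidermal growth factor receptor ligand, and Ier3 (0.888).

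Other clade B serpins went in both directions. Of 8 measured, 2 were called higher and 2 lower on day 4 in WT skin (3.24% of all probe sets in either direction), and 3 higher and 2 lower in D6-deficient skin (4.01%). Between the genotypes on the same day, Serpinb7 was called lower in D6-deficient skin on day 2, at -2.07 (adjusted p = 0.022, 0.572% of all probe sets). Serpinb7, which lies between Serpinb11 and Serpinb2 on chromosome 1, fell on day 4, with changes of -1.98 in WT and -3.93 log2 in D6-deficient skin, and Serpinb6b rose by 2.44 and 2.87. Serpinb9b, a paralog of Serpinb9, rose by 2.17 and 2.75. Serpinb6e fell on days 1, 2 and 4, with changes of -1.81, -1.76 and -1.94 in WT skin and -2.33, -2.45 and -2.30 in D6-deficient skin. Of 17 serpins of other clades, 4 were called higher and 1 lower on day 4 in WT skin, and 3 higher and 1 lower in D6-deficient skin, against the same 3.24% and 4.01%. Serpina12 fell on that day, with changes of -5.23 and -5.49, while Serpina3m rose by 3.14 and 3.89. Serpina9 rose by 3.76 in WT and 2.55 in D6-deficient skin on day 2.

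The proteases that serpins restrain were examined by list. Of 11 kallikreins and membrane serine proteases of epidermis, 6, 10, 7 and 3 were called higher on days 1, 2, 4 and 6 in WT skin and 4, 5, 4 and 1 in D6-deficient skin. Of all probe sets, 1.77%, 1.90%, 3.24% and 1.34% were called in WT and 2.49%, 3.27%, 4.01% and 2.13% in D6-deficient skin. The list began higher in D6-deficient skin, with a summed intensity of 7030 to 8740 on day 0 against 4830 to 5040 in WT skin. None was called lower, although 2 fell by less than 3-fold on day 4 in D6-deficient skin. The median change of the list on day 2 was 2.41 in WT and 1.02 log2 in D6-deficient skin. Klk6, a trypsin-like kallikrein, rose by 4.41, 5.96, 6.39 and 3.52 log2 in WT skin and by 3.79, 4.86, 4.79 and 2.95 in D6-deficient skin. On day 4, Klk9 rose by 4.34 and 4.02 and Klk10 by 3.33 and 3.04, and on day 2, Klk12 rose by 2.99 and 3.44. Among granzymes, Gzmb, the target of Serpinb9, rose on day 4 by 3.43 in WT and by 3.51 in D6-deficient skin, and Gzma by 1.70 and 2.17. Serpinb9 rose on that day as well. Of 6 granzyme and perforin genes, 2 were called higher on day 4 in each genotype (3.24% and 4.01% of all probe sets in either direction). On day 2, when Serpinb9 did not pass, 1 was called higher in WT skin (1.90%) and 3 passed as higher in D6-deficient skin (38.1%).

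Of the plasminogen system, Plaur, the urokinase receptor, rose on day 4 by 2.41 and 2.56, and on day 2 by 0.75 in WT and by 2.15 in D6-deficient skin. Plau, urokinase itself and a target of Serpinb2, fell by 1.92 on day 1 in WT skin, and its day 4 changes were -0.25 (adjusted p = 0.58) and 0.13 (0.78). The next genes are named as targets of members and not for the size of their change. Of the granule proteases that Serpinb1a blocks, Ctsg, cathepsin G, rose by 1.38 on day 2 in D6-deficient skin (adjusted p = 0.0025), whereas on day 4 Elane was at -0.02 and -0.07 with neither passing. The summed intensity of 3 neutrophil serine proteases on day 0 was 221 to 362 in D6-deficient and 115 to 129 in WT arrays. Of these 3, 1 was called higher in D6-deficient skin on day 0 (0.122% of all probe sets in either direction), and 1 passed as higher on day 2 (4.45%). Lysosomal cathepsins changed less than 3-fold, with Ctsl rising on day 2 by 0.45 in WT and 1.09 in D6-deficient skin. Furin, the target of Serpinb8, rose by 0.39 on day 4 in each genotype (adjusted p = 0.012 and 0.011) while Serpinb8 fell in D6-deficient skin.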

How the data were processed

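Back skin RNA of 30 mice, 3 separate animals in each of 10 genotype-by-day groups, was measured on 30 arrays. Per the labels and the methods, the authors made the deposited intensity values by RMA (background correction, quantile normalization and probe set summary) and analysed them in GeneSpring. The genome build behind the probe annotation is not given in the sources used here. The intensity values are linear, and their log2 was taken here. RMA shrinks weak signals, which compresses changes near the floor. A second deposited file held only a sheet of sample descriptions and was not used.

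The 64 control probe sets were left out, and of the other 45037 the 9008 with the lowest means (20%) were removed. The 36029 left were fitted in limma 3.58.1 (R 4.3.3), with 1 mean per genotype and day over all arrays, moderated variances and Benjamini-Hochberg adjustment over all tested probe sets. Called means adjusted p under 0.05 and over 3-fold. The median SD between arrays of a group was 0.153 log2. An exact permutation test of 3 against 3 arrays cannot go below p = 0.1. The number of arrays limits the precision. In data simulated for D6-deficient day 2 minus day 0, 99.5% of 200 probe sets changed by 8-fold were recovered among 36029, with 1 false call. Smaller changes were not simulated, so this does not bear on changes near 3-fold or below it.

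The members, the other gene lists and the comparisons were chosen with earlier results of these data known. Named genes are all members by their brightest probe set, up to 3 genes of highest Pearson r to each, and at most 4 called genes of the greatest change in each other list. Exceptions are a few proteases named as targets of members. A gene of the list of other serpins that met this rule is not reported here. Promoters came from RefSeq tables of GRCm38.p6. Alternatives tried were no filter, median centring, a gene mean over probe sets, a replicate block, hybridization control sets as a covariate, the arrays of each contrast alone, the methods' t-test, no fold threshold and leaving out each array.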

Additional observations from a re-analysis of the deposited data

Results flagged for a closer look

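The change from day 0 differed between the genotypes, by a limma test of the difference itself, for 4 members on day 2 and 1 on day 4. On day 2 the difference (D6-deficient minus WT) was -2.10 log2 for Serpinb3a, from changes of 4.68 and 6.78, and -2.01 for Serpinb3b and Serpinb3c, from 3.25 and 5.27. It was -1.52 for Serpinb11, from 1.13 and 2.65, and -0.85 for Serpinb8, from 0.29 and 1.15. On day 4 it was -1.42 for Serpinb5, from -1.50 and -0.08 with the quoted probe set, whereas its other probe sets also fell in WT skin. Adjusted p-values were 0.02, 0.016, 0.042, 0.037 and 0.014 in that order. The contrasts of day 2 all share the 6 arrays of day 0, so they are not separate pieces of evidence. Groups of 3 arrays are too small for a test of single outlying arrays.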

How the results depend on the processing

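Under all alternatives tried, none of the 216 member values that were tested changed direction while called. Of these values 44 were called, and without the filter on low values all 216 kept their call or lack of one. Median centring added 2 calls, and the hybridization control sets as a covariate removed 1 and added 3. The mean of a gene's probe sets removed 4 and added 3, among the removed the fall of Serpinb12 on day 4 (-0.74 in WT, -1.09 in D6-deficient skin), and the methods' t-test with adjusted p removed 18 and added 1. Leaving out 1 array at a time gave 1728 values, called or not, among which 25 calls were lost and 15 were gained.

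With the fold threshold dropped, the members called numbered 6, 8 and 7 on days 1, 2 and 4 in WT and 5, 5, 8 and 4 on days 1 to 6 in D6-deficient skin. Between genotypes this gave 1 on days 0 and 2 of the same-day comparison, 4 and 1 on days 2 and 4 of the change from day 0, and 2 over all days. Between successive days it gave 7 and 7 in WT (day 4 minus 2, day 6 minus 4) and 2 and 5 in D6-deficient skin (day 2 minus 1, day 4 minus 2). The methods' t-test with adjusted p called 0 on day 6 in either genotype, 1 in the day 2 change between genotypes, 0 and 1 in WT (day 2 minus 1, day 4 minus 2) and 0 and 2 in D6-deficient skin (day 2 minus 1, day 6 minus 4). Unadjusted, it called 1 on day 6 in D6-deficient skin and 2, 1 and 2 in the changes of days 1, 4 and 6 between genotypes. With only the arrays of the contrast, 0 were called in the day 2 change between genotypes and 1 in WT day 2 minus 1. The control-set covariate and the gene mean each called 1 between genotypes on day 0 and 2 in D6-deficient day 2 minus 1.

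With single arrays left out, the count called ran from 3 to 5 on day 4 and from 1 to 2 on day 6 in D6-deficient skin, from 0 to 2 between genotypes on day 0, from 0 to 3 in the day 2 change between genotypes, from 1 to 2 in WT and D6-deficient day 2 minus 1, and from 1 to 3 in WT day 4 minus 2.

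Replicate numbers are shared between groups, but all 3 same-numbered arrays deviated together (r above 0.1) in 1 of 19 pairs of groups, with r from -0.292 to 0.378, so the numbers were not taken as pairing. A replicate block changed none of the 216 member calls, and the calls over all probe sets and comparisons summed to 11191 with it and 11206 without. Low intensities, near the cut of the filter, limit the Serpinb12 values of day 4.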
